A study of Mus musculus with 14 samples.

Results

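The comparison of kidneys at day 3 with kidneys at day 1 after ischemia-reperfusion injury (IRI) rests on 10 of the 14 bulk RNA sequencing libraries of the study, 5 at each day, chosen by the day in their labels. The other 4 libraries, from day 0, are called controls and served here as the level before injury. All libraries came from kidneys of male C57/B6 mice aged 8 weeks, with total RNA extracted by TRIzol and sequenced from an Illumina TruSeq kit. No genetic change or drug is named for any of them, and neither the clamping of the kidney nor a sham operation of the day 0 mice is described in the labels. The labels also do not say that each library came from a separate mouse, so p-values measure the spread between these libraries, which may be technical.

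A number in the libraries' names has 3 digits for replicates 1 and 2 of day 1 and replicates 1 to 3 of day 3, and 1 digit for every other library, day 0 included. What this number format marks is not stated. It divides both days, so it was kept as a term beside the day, and many of the comparisons are also given within the 1-digit libraries (3 at day 1, 2 at day 3) and within the 3-digit libraries (2 at day 1, 3 at day 3). Day 0 holds the 1-digit format alone, so a difference between day 0 and the 3-digit libraries cannot be told apart from the format. Values listed for a format follow the replicate numbers.

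IRI starves the kidney of oxygen and then floods it with blood again, and the cells most exposed are those of the proximal tubule, which reclaim most of the filtered solutes and depend on mitochondrial fatty acid oxidation. In the first hours the tubules switch on immediate early transcription factors, heat shock proteins and injury proteins such as the receptor KIM-1 and the secreted NGAL. Surviving tubular cells then lose their transporters, enter the cell cycle and spread over the denuded membrane, while neutrophils and later macrophages arrive and fibroblasts lay down collagen.

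Reads on genes ranged from 12485579 to 20476979 per library. Levels are given as CPM, a gene's counts relative to its library's total after TMM scaling, and differences as log2 fold changes ± standard error of day 3 over day 1 from edgeR's quasi-likelihood test. A gene is said to have risen or fallen where its p-value, adjusted by Benjamini-Hochberg over the 14300 genes tested, was under 0.05. With the format as a term, 2811 genes differed between day 3 and day 1 (19.7%), of which 1572 were higher at day 3 (11%) and 1239 lower (8.66%). Scaling by total counts gave 2306 higher and 625 lower genes, with the median of all genes at 0.15 on the log2 scale in place of 0.02. The count fell to 1531 without replicate 4 of day 3. In bulk tissue, fewer cells of a type and less RNA per cell cannot be told apart.

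Of the 2811 genes, 2805 had the same sign within both formats (19.6%), with 1567 higher (11%) and 1238 lower (8.66%), and 6 had opposite signs (0.042%). The fit with the format as a term averages the changes within the formats, so a call there largely brings the same sign in both. The agreement is therefore no independent test. The 5 libraries of day 1 and the 5 of day 3 did not overlap for 1088 genes (7.61%), of which 1017 also passed the test (7.11%).

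The formats differed in what happened between the days. The 1-digit libraries gave 4571 genes that differed between day 3 and day 1 (32%), 2357 higher (16.5%) and 2214 lower (15.5%). The 3-digit libraries gave 1988 (13.9%), 1072 higher (7.5%) and 916 lower (6.41%). Both formats gave a call in the same direction for 553 genes (3.87%), 311 higher (2.17%) and 242 lower (1.69%). Calls were in opposite directions for 250 genes (1.75%), of which 141 fell in the 1-digit and rose in the 3-digit libraries (0.986%) and 109 did the reverse (0.762%). The difference between the formats was itself past the threshold for 2510 genes (17.6%), with a higher change in the 3-digit libraries for 1302 (9.1%) and a lower one for 1208 (8.45%). Without replicate 1 of day 1 the count within the 3-digit libraries was 233 and the count of genes that differed between formats was 1260, and without replicate 2 of day 1 these were 746 and 1613. The 1-digit count was 2794 without replicate 4 of day 3. Counts in the gene lists below stand against these shares of all genes and those with the format as a term.

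**Figure D1:**
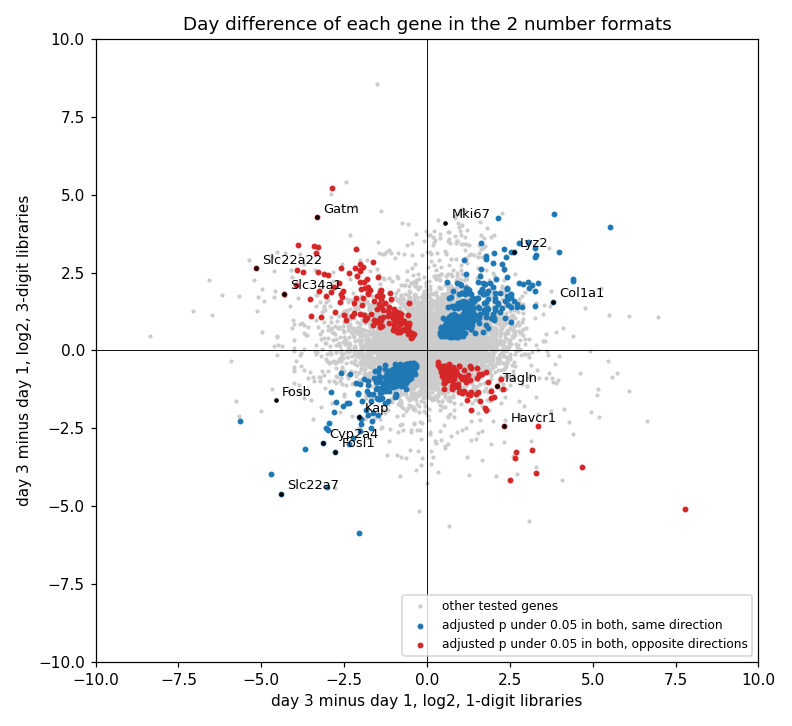
Each point is 1 of the 14300 genes tested, with its log2 fold change of day 3 over day 1 within the 1-digit libraries on the x axis and within the 3-digit libraries on the y axis. Blue points are the 553 genes called in both formats in the same direction, red points the 250 called in opposite directions, and grey points the others.

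Among genes with at least 1 CPM on average and the same sign in both formats, those of the steepest rise included a transcription factor and genes of dividing cells. Lhx2, a homeobox transcription factor, was at 0 to 0.273 CPM at day 1 and 0.441 to 4.48 CPM at day 3, with a log2 fold change of 3.44 ± 0.80 (adjusted p = 0.011). Cenpf and Neil3, the former a kinetochore protein and the latter a DNA glycosylase of dividing cells, rose by 3.41 and 3.32 (adjusted p = 0.00258 and 0.017). For both the high values were in the 3-digit libraries of day 3, at 30.3, 33.2 and 39.7 CPM for Cenpf and 4.43, 6.08 and 8.17 CPM for Neil3, against 4.03 and 0.661 CPM for Cenpf and 0.269 and 0.147 CPM for Neil3 in the 1-digit ones.

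The remaining genes of the steepest rise belong to detoxification and lipid handling. Ugt1a1 and Ugt1a2 encode enzymes that couple bilirubin and other compounds to glucuronic acid. They share exons, so reads may be divided between them and their values are uncertain. Ugt1a1 was at 0.136 to 0.636 CPM at day 1 and 0.732 to 7.48 CPM at day 3, without overlap, and rose by 3.50 ± 0.60 (adjusted p = 0.00245). Ugt1a2 rose by 4.13 ± 0.85 (adjusted p = 0.00623), a call lost without replicate 4 of day 3 (adjusted p = 0.0599). Marc1, which encodes an outer mitochondrial membrane reductase, was at 0.182 to 1.02 CPM at day 1. At day 3 Marc1 stood at 18.1 and 1.76 CPM (1-digit) and 14.6, 1.18 and 1.44 CPM (3-digit), so that 1 library of each format carried the rise of 3.48 ± 0.88 (adjusted p = 0.0163, and 0.128 without replicate 4 of day 3). Cyp4a14 is a fatty acid hydroxylase under control of PPARα and has close copies in the mouse genome. It was at 81.6, 14.4 and 12.1 CPM (1-digit) and 561 and 613 CPM (3-digit) at day 1, and at 2654 and 604 CPM (1-digit) and 2372, 176 and 1328 CPM (3-digit) at day 3. Its rise of 3.31 ± 1.04 (adjusted p = 0.0392) was lost in 8 of the 14 fits that each left out 1 library. The largest adjusted p of those fits was 0.0952, without replicate 4 of day 1. The 1-digit change was 5.50 and the 3-digit change 1.14, which differed from each other (adjusted p = 0.0376).

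The steepest fall was that of Slc22a7, the organic anion transporter OAT2, which lies on chromosome 17 of GRCm38 from 46432183 to 46438457. Day 0 libraries had 201, 240.4, 181 and 313 CPM of Slc22a7. At day 1 they had 39.8, 24.2 and 24.7 CPM in the 1-digit and 43.9 and 24.7 CPM in the 3-digit format, and at day 3 1.88 and 0.881 CPM (1-digit) and 1.02, 2.48 and 0.792 CPM (3-digit). The 3 days did not overlap, and the level fell a further 22.7-fold from day 1 to day 3. This was −4.51 ± 0.33 on the log2 scale (adjusted p = 3.45e-05), and it was −4.40 and −4.60 within the formats. Slc22a7 was among the genes that left their day 0 level at day 1 and moved further from it at day 3, of which there were 108 upward and 93 downward.

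Cyp2d9 and Cyp2a4 are cytochrome P450 enzymes that hydroxylate steroids, and both have near-identical copies, so their counts are uncertain. Cyp2d9 was at 82.6 to 319 CPM at day 1 and 4.37 to 35.2 CPM at day 3 (log2 fold change −3.43 ± 0.66, adjusted p = 0.00442). Cyp2a4 was at 166 to 302 CPM and 13.2 to 31.6 CPM at the same days (−3.05 ± 0.24, adjusted p = 3.45e-05). The days did not overlap for either gene. Kap, the androgen-regulated kidney protein of the proximal tubule, lies on chromosome 6 from 133849851 to 133853762. Kap was at 32613, 26726 and 30229 CPM (1-digit) and 25188 and 15208 CPM (3-digit) at day 1, and at 7232 and 7094 CPM (1-digit) and 3628, 6910.4 and 3340.4 CPM (3-digit) at day 3. Day 1 overlapped with day 0 (26767 to 31145 CPM), while every library of day 3 lay below all of day 1. Kap fell by 2.09 on the log2 scale (adjusted p = 0.000478), with −2.06 and −2.13 within the formats.

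C4a, a complement component that shares most of its sequence with C4b and is uncertain for that reason, was at 18 to 73.6 CPM at day 1 and 0.807 to 12.7 CPM at day 3, and fell by 2.77 (adjusted p = 0.00587). Ido2, an enzyme of tryptophan breakdown, was at 1.37 to 4.96 CPM and 0 to 1.24 CPM at the same days and fell by 2.96 (adjusted p = 0.00765). Pvalb, the calcium-binding protein parvalbumin of the distal convoluted tubule, was already low at day 1 in the libraries of 1 format. At day 1 it was at 59.4, 45.4 and 70.9 CPM in the 1-digit libraries, close to the 44.4 to 54.7 CPM of day 0, and at 4.58 and 3.86 CPM in the 3-digit ones. All libraries of day 3 were at 0 to 3.94 CPM. The log2 fold change of Pvalb was −5.77 in the 1-digit and −1.62 in the 3-digit libraries, a difference past the threshold (adjusted p = 0.0374). With the format as a term it was −3.62 ± 0.95 (adjusted p = 0.0184), and the adjusted p was 0.0704 without replicate 4 and 0.0556 without replicate 5 of day 3.

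The immediate early genes, which encode transcription factors and phosphatases that cells switch on within minutes of a stimulus, were above day 0 at day 1 in 19 of 20 cases and at day 3 in 17. From day 1 to day 3, 11 of the 20 fell and 0 rose, with a median log2 fold change of −1.27 against 0.02 over all genes. The 1-digit libraries gave 15 falls (9 without replicate 4 of day 3), and the 3-digit libraries 3 (7 without replicate 1 of day 3). The count with the format as a term was 7 without replicate 4 of day 3 and 6 without replicate 5. Fosl1, a partner of c-Jun in the AP-1 complex, lies on chromosome 19 from 5447547 to 5455946. It was listed at 0 to 0.0605 CPM at day 0. At day 1 Fosl1 stood at 99.97, 162 and 122 CPM (1-digit) and 57.2 and 32.5 CPM (3-digit), and at day 3 at 4.64 and 33 CPM (1-digit) and 3.72, 5.35 and 5 CPM (3-digit). Replicate 5, the second of the 1-digit libraries named, was the only library of day 3 that reached into the range of day 1. The log2 fold change of Fosl1 was −3.01 ± 0.40 (adjusted p = 0.000683) and was called in both formats.

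Klf6, a zinc finger factor of injured epithelium, lies on chromosome 13 from 5861482 to 5870394 and was at 35.3 to 39.2 CPM at day 0. It was at 824, 795 and 878 CPM (1-digit) and 256 and 189.9 CPM (3-digit) at day 1. By day 3 Klf6 was at 233 and 276 CPM and 189, 139 and 161 CPM in these formats, so the formats were far apart at day 1 and close at day 3. Its fall was 1.71 in the 1-digit libraries (adjusted p = 8.41e-05), against a log2 fold change of −0.45 in the 3-digit ones (adjusted p = 0.0841, and 0.0344 without replicate 1 of day 3), and the formats differed (adjusted p = 0.00401). Jun had the same shape, with 917, 248 and 610.0 CPM (1-digit) and 80.6 and 81.3 CPM (3-digit) at day 1. Its log2 fold change was −2.62 (adjusted p = 0.000793) and 0.12 (adjusted p = 0.855) in the same order. Fosb was at 71.3, 42.1 and 96.4 CPM and 2.69 and 0.954 CPM at day 1 and at 0.225 to 4.85 CPM at day 3, and fell by 3.39 (adjusted p = 0.00666) with the format as a term. Egr1 fell by 2.57 (adjusted p = 0.0318), a call lost in 5 of the fits that left out 1 library, with the largest adjusted p of 0.111 without replicate 4 of day 3. The letters TGACGTCA, the cyclic AMP response element, were found on either strand in the promoters of 3 of the 15 immediate early genes that have an entry in RefSeq's promoter table (20%), in those of 2.03% of all genes of that table and in 1.79% of all 32851 promoters, each running from 250 bases before to 50 after the start.

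Arc and Phlda1, a pair of stimulus-induced genes, were the clearest cases of a full return. Arc was at 3 to 8.59 CPM at day 0, 10.5 to 37.5 CPM at day 1 and 2.31 to 3.97 CPM at day 3. Phlda1 was at 4.88 to 6.56, 15.3 to 40.4 and 3.16 to 8.45 CPM at these days. For both genes the libraries of day 1 lay above all of day 3, and the falls were 2.63 (adjusted p = 0.00113) for Arc and 2.21 (adjusted p = 0.00101) for Phlda1. Dusp14, a phosphatase of MAP kinases, fell by 1.58 (adjusted p = 0.0111), from 115, 64.8 and 104 CPM (1-digit) and 25.4 and 27.8 CPM (3-digit) at day 1 to 11.2 to 26.2 CPM at day 3. The fall of Dusp14 was 2.49 in the 1-digit libraries, while the 3-digit libraries gave −0.67 (adjusted p = 0.185), and the formats differed (adjusted p = 0.0196).

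Heat shock proteins fold and refold other proteins under stress, and 7 of 11 tested fell from day 1 to day 3, with a median of −1.34 and 0 that rose. All 11 fell within the 1-digit libraries (median −2.31), 1 fell within the 3-digit ones (median −0.24), and 8 of the 11 differed between formats. The count with the format as a term was 3 without replicate 4 or without replicate 5 of day 3, and 11 without replicate 1 of day 1. Hsp90aa1 was at 780.4 to 889 CPM at day 0. It was at 3301, 2328 and 4097 CPM (1-digit) and 664 and 750.3 CPM (3-digit) at day 1, and at 343 and 758 CPM (1-digit) and 409, 563 and 507 CPM (3-digit) at day 3. The 1-digit libraries of day 1 stood apart from all the others, and the fall was 2.56 within that format (adjusted p = 0.000202) against a log2 fold change of −0.52 in the 3-digit libraries (adjusted p = 0.252). Hspa8 and the mitochondrial chaperonin Hspd1 followed the same pattern, with log2 fold changes of −2.25 and −1.76 within the 1-digit format (adjusted p = 0.000587 and 9.85e-05), beside 3-digit values of −0.17 and −0.24 (adjusted p = 0.759 and 0.398). The members Hspa1a and Hspa1b share nearly all their sequence, so their counts are uncertain.

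Of 10 genes of the unfolded protein response, which relieves a burden of misfolded protein in the endoplasmic reticulum, 4 fell and 0 rose (median −0.79). Atf4, the factor that drives its amino acid branch, was at 98.9 to 124 CPM at day 0, 584, 802 and 596 CPM (1-digit) and 236 and 168 CPM (3-digit) at day 1, and 108 to 293 CPM at day 3. It fell by 1.16 (adjusted p = 0.00695). The endoplasmic reticulum chaperone Hspa5 was at 1832, 1491 and 2040.0 CPM and 436 and 540.2 CPM in the formats at day 1 and at 347 to 743 CPM at day 3, and the format difference of its change was 2.11 (adjusted p = 0.00376). Herpud1, a part of the machinery that degrades such proteins, fell in the 1-digit libraries (−1.03, adjusted p = 0.0114) and rose in the 3-digit ones (1.05, adjusted p = 0.023). The former call was lost without replicate 5 of day 3 (adjusted p = 0.0966) and the latter without replicate 1 or 2 of day 1 (0.129 and 0.135).

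Genes of ribosome biogenesis, the assembly of ribosomes in the nucleolus that growing cells need, fell in part. Of 14 tested, 9 fell and 0 rose (median −0.66), with 6 lower in the 1-digit (median −0.63) and 8 in the 3-digit libraries (median −0.73). The formats differed for 1 of the 14. The 3-digit count was 1 without replicate 1 and 3 without replicate 2 of day 1 and 5 without replicate 1 or 3 of day 3, the 1-digit count was 1 without replicate 4 of day 3, and the medians kept their sign in every such fit. The 0 rises of the immediate early, heat shock, unfolded protein response and ribosome lists were also 0 at an unadjusted p under 0.05 with edgeR and with DESeq2. Gnl3, the nucleolar protein nucleostemin, was at 83.1, 89 and 94.8 CPM (1-digit) and 68.6 and 64.9 CPM (3-digit) at day 1. At day 3 Gnl3 was at 44.7 and 60.3 CPM (1-digit) and 35.4, 37.9 and 32.6 CPM (3-digit), below every library of day 1 and above the 24.7 to 32 CPM of day 0. It fell by 0.84 (adjusted p = 0.000592). Nop58, a core protein of the particles that methylate ribosomal RNA, went from 82 to 144 CPM to 32.1 to 63.2 CPM (−1.04 ± 0.21, adjusted p = 0.00577). Nolc1, which carries such particles, went from 66.7 to 86.9 CPM to 36.2 to 59 CPM (−0.73 ± 0.14, adjusted p = 0.00489), back into the range of day 0 (42.3 to 52.9 CPM) in part of the libraries.

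**Figure D2:**
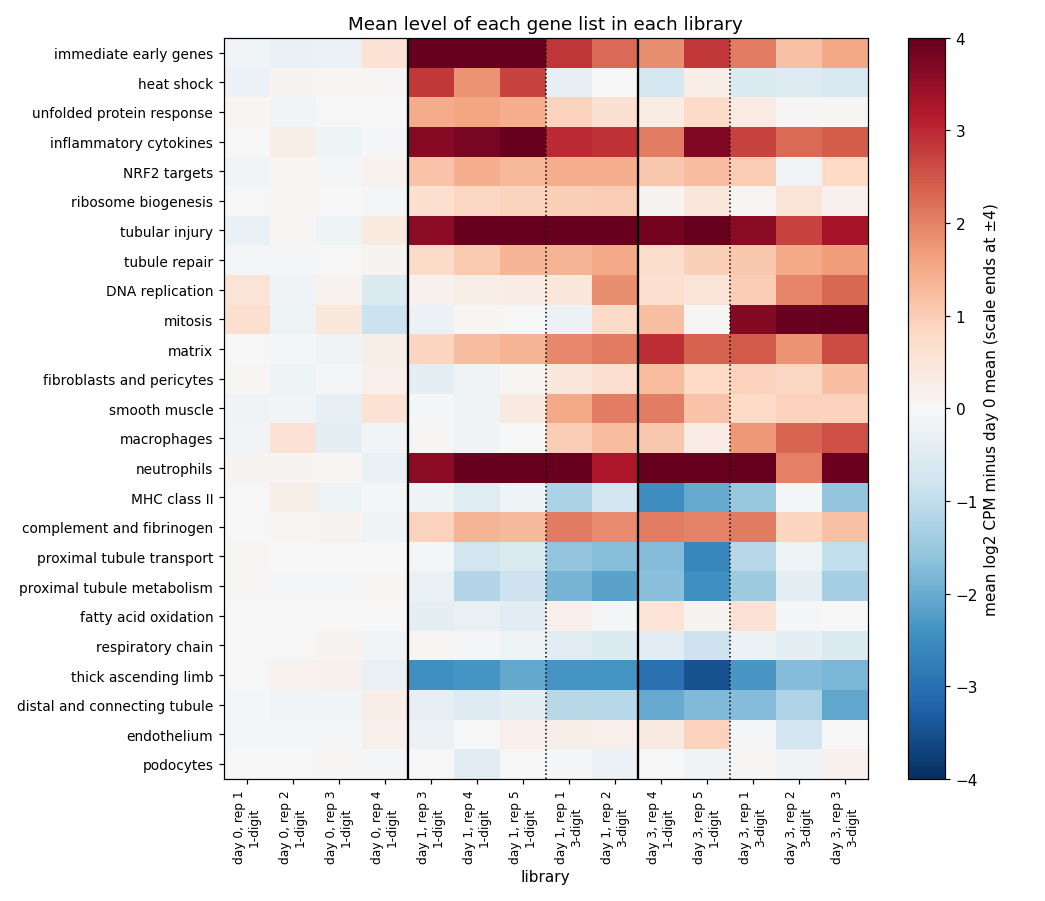
Rows are 25 gene lists and columns the 14 libraries, ordered by day (solid lines) and by number format within a day (dotted lines). Color gives the mean over a list's tested genes of log2 CPM minus the mean of day 0, on a scale from −4 to 4. The 3-digit libraries of day 3 stand out in the mitosis row, where they lie at 3.68, 3.95 and 4.25.

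Most of the genes of tubular injury stayed above day 0. Of 16 tested, 10 were above day 0 at both days with no call between the days, 4 fell and 0 rose between day 1 and day 3 (median −0.28). The 4 that fell were Krt8, Tnfrsf12a, Plaur and Hbegf. Krt8, a keratin of simple epithelium, was at 118 to 138 CPM at day 0. Krt8 was at 804, 1326 and 1007 CPM (1-digit) and 1335 and 1068 CPM (3-digit) at day 1, and at 446 and 656 CPM (1-digit) and 547, 355 and 466 CPM (3-digit) at day 3. Every library of day 3 was below those of day 1 and above those of day 0, with a fall of 1.16 (adjusted p = 0.00165) called in both formats. Within the 3-digit libraries 6 injury genes fell, with 0 without replicate 1 of day 1 and 3 without replicate 3 of day 3. Within the 1-digit libraries 4 rose and 4 fell. Without replicate 3 of day 1 or replicate 4 of day 3 the rises were 1, without replicate 4 or 5 of day 1 or replicate 5 of day 3 they were 2, and without replicate 4 of day 3 the falls were 1.

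Havcr1 encodes KIM-1, the receptor by which tubular cells take up dying neighbours, and lies on chromosome 11 from 46735080 to 46779578. Its day 1 values split by format. The 1-digit libraries of day 1 had 30.5, 151 and 45.8 CPM, which includes values below the 89.8 to 119 CPM of day 0, and the 3-digit libraries had 1860.1 and 3014 CPM. At day 3 Havcr1 was at 516 and 248 CPM (1-digit) and 170.3, 786 and 398 CPM (3-digit), between those extremes. It was 5.04-fold higher at day 3 within the 1-digit libraries (log2 2.33 ± 0.63, adjusted p = 0.0135) and 5.4-fold lower within the 3-digit ones (−2.43 ± 0.63, adjusted p = 0.0237), and the formats differed (adjusted p = 0.00387). The 1-digit call was lost without replicate 4 of day 3 (adjusted p = 0.121) or replicate 5 of day 1 (0.0504). The 3-digit call was lost without replicate 1 (0.079) or 2 of day 1 (0.125) or replicate 3 of day 3 (0.0712). With the format as a term the difference was −0.05 (adjusted p = 0.974). The labels place all these day 1 libraries after IRI. In replicates 3 to 5 of day 1 the transporter Slc34a1, given further on, was near day 0. The transporter Slc22a7 was far below day 0 there, at 39.8, 24.2 and 24.7 CPM against 181 to 313 CPM. Krt8 was above day 0 in the same libraries, at 804, 1326 and 1007 CPM. What sets these libraries apart was not tested.

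Lcn2, which encodes NGAL, was high in nearly every injured library. It was at 479.8, 1446 and 1908 CPM (1-digit) and 2777 and 1829 CPM (3-digit) at day 1 and at 2672 and 3403 CPM (1-digit) and 2063, 66.1 and 681 CPM (3-digit) at day 3, against 1.63 to 3.24 CPM at day 0. Replicate 2 of day 3 had the lowest value, and the days overlapped. The log2 fold change of Lcn2 was −0.02 ± 0.70 (adjusted p = 0.985). The secreted phosphoprotein Spp1 was at 940.2 to 1231 CPM at day 0, 6344 to 29960.2 CPM at day 1 and 4883 to 39738 CPM at day 3. Spp1 rose within the 1-digit libraries (1.85 ± 0.50, adjusted p = 0.0137), a call lost without replicate 3 of day 1 (0.052) or replicate 4 of day 3 (0.0755), and was at −0.64 within the 3-digit ones (adjusted p = 0.423).

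Among 12 genes of tubule repair, 2 rose, Vim and Sox4, and 2 fell, Sox9 and Itgb6, where 11% of all genes rose and 8.66% fell. The 2 falls were 0 without replicate 4 of day 1 or replicate 4 of day 3, and the rises numbered 1 in 9 of the 14 fits that left out 1 library and 4 without replicate 5 of day 3. Vim, the intermediate filament vimentin that dedifferentiated tubular cells and mesenchymal cells make, was at 27.7 to 33.9 CPM at day 0. It was at 81.1, 73.3 and 101 CPM (1-digit) and 126 and 131 CPM (3-digit) at day 1 and at 194 and 149 CPM (1-digit) and 157, 263 and 210.1 CPM (3-digit) at day 3. The 3 days did not overlap, and Vim rose by 0.86 (adjusted p = 0.00294), with 1.01 and 0.71 within the formats. Of 10 targets of NRF2, the factor of the antioxidant response, 2 fell, where 8.66% of all genes did. Within the 1-digit libraries 2 rose and 3 fell (1 and 2 without replicate 4 of day 3), within the 3-digit ones 3 fell (1 without replicate 1 or 2 of day 1 and 5 without replicate 4 or 5 of day 3), and 4 differed between formats. Of all genes 16.5% rose and 15.5% fell in the 1-digit libraries, 6.41% fell in the 3-digit ones, and 17.6% differed between formats. Hmox1, which encodes the heme oxygenase that breaks down free heme, was at 33.8 to 52 CPM at day 0, 358 to 915 CPM at day 1 and 77.8 to 326 CPM at day 3, without overlap between any of the days. It fell 4.3-fold from day 1 to day 3 (log2 −2.10 ± 0.27, adjusted p = 0.000563) and was called in both formats. Txnrd1, thioredoxin reductase, fell by 0.99 (adjusted p = 0.00577). Of 12 targets of p53, 1 fell against 8.66% of all genes, the stress cytokine Gdf15 (−1.12 ± 0.31, adjusted p = 0.0228, with 0 falls without replicate 1 of day 1 or replicate 4 of day 3). Within the formats 3 of the p53 targets fell in the 1-digit libraries (15.5% of all genes did, and 1 target without replicate 4 of day 3) and 2 in the 3-digit ones (6.41% of all genes, with 0 targets without replicate 1 of day 1, and 1 without its replicate 2 or replicate 3 of day 3). Of 14 genes of glycolysis and hypoxia 2 fell, Aldoa and the glucose transporter Slc2a1, and 1 rose, the kinase Pdk1, where 8.66% and 11% of all genes did. The call of Aldoa (−0.48, adjusted p = 0.0344) was lost in 6 of the fits that left out 1 library, with the largest adjusted p of 0.0896 without replicate 2 of day 1, and under scaling by total counts.

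Genes of mitosis rose, and within the formats they did so in the 3-digit libraries. Of 21 tested, 18 rose with the format as a term and 0 fell, with a median of 2.36. Within the 3-digit libraries all 21 rose (median 3.81), within the 1-digit libraries 3 rose (median 0.89), and 14 differed between formats. DESeq2 called all 21 with the format as a term. Leaving out replicate 1 or 2 of day 1 lowered the edgeR count of 18 to 8 or 7, and within the 1-digit libraries the count was 0 to 5 over these fits, with 0 without replicate 5 of day 1 or replicate 4 of day 3. Mki67, which encodes the proliferation antigen Ki-67, lies on chromosome 7 from 135689784 to 135716361. Mki67 was at 4.54 to 12.7 CPM at day 0, at 5.93, 7.03 and 6.68 CPM (1-digit) and 4.31 and 12.1 CPM (3-digit) at day 1. At day 3 the 3-digit libraries had 92.7, 145 and 188 CPM, above every other library, and the 1-digit libraries had 13.2 and 5.95 CPM, inside or just above the range of the earlier days. The 3-digit libraries gave a 17.1-fold rise (log2 4.10 ± 0.54, adjusted p = 0.00105), the 1-digit ones 0.55 ± 0.49 (adjusted p = 0.408), and the formats differed (adjusted p = 0.00506).

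Cdk1, the kinase that drives entry into mitosis, was at 2.45 to 8.9 CPM at day 1, and at 11.6 and 5.36 CPM (1-digit) and 44.7, 51.7 and 68.8 CPM (3-digit) at day 3. It rose by 2.10 ± 0.47 (adjusted p = 0.00927). Its cyclin partner Ccnb1 was at 0.681 to 3.27 CPM at day 1 and at 8.88 and 1.69 CPM (1-digit) and 46.8, 38.7 and 45.3 CPM (3-digit) at day 3. Ccnb1 rose by 2.61 (adjusted p = 0.0175), and the adjusted p was 0.0629, 0.0601 and 0.0679 without replicate 1 or 2 of day 1 or replicate 4 of day 3. Ccna2, the cyclin of S phase and early mitosis, had a 3-digit change of 4.42 (adjusted p = 0.000928) and a 1-digit change of 0.96 (adjusted p = 0.177). Ect2, which sets the cleavage furrow, was at 7.65 to 11.6 CPM at day 0, 3.34 to 11.1 CPM at day 1, and 8.27 and 4.92 CPM (1-digit) and 25, 49.1 and 58.9 CPM (3-digit) at day 3, where both 1-digit values lay within the range of day 1. It rose by 1.74 (adjusted p = 0.00752), and the change was 0.90 within the 1-digit format (adjusted p = 0.106), against 2.48 within the other (adjusted p = 0.00316).

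Mitotic genes are known to carry CCAAT boxes and cell cycle homology region (CHR) elements in their promoters, and the promoters of 3 members that rose are shown for these elements. They run over the 250 bases before the start in RefSeq's GRCm38.p6, are on the minus strand, and have in capitals each CCAAT box (CCAAT) and CHR element (TTTGAA) read on either strand.
Mki67, chr7:135716380-135716629: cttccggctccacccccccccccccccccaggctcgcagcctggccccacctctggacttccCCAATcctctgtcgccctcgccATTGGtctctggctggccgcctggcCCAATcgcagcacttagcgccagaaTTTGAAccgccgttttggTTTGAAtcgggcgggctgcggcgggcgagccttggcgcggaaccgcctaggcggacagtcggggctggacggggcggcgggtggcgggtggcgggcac
Cdk1, chr10:69352913-69353162: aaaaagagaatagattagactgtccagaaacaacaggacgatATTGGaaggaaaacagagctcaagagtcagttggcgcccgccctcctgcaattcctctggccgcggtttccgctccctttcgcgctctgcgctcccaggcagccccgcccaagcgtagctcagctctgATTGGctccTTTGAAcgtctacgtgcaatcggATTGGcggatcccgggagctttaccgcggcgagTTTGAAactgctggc
Ccnb1, chr13:100786487-100786736: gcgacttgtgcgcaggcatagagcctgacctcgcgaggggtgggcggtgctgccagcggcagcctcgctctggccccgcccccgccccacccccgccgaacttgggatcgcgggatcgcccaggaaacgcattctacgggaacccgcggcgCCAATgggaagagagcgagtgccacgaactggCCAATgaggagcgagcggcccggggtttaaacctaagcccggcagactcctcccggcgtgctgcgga
The promoters of Mki67 and Cdk1 hold 3 CCAAT boxes and 2 CHR elements each, and that of Ccnb1 holds 2 CCAAT boxes and 0 CHR elements in this window. Of the 18 mitosis genes with an entry in the promoter table, 16 held a CCAAT box between 250 bases before and 50 after the start (88.9%), as did 41.1% of all 27025 genes in the table and 37.4% of all promoters. A CHR element was in 13 of the 18 (72.2%), in 20.2% of all genes and in 17.9% of all promoters. These matches describe the letters and do not show that a factor binds there.

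Of 19 genes of DNA replication, 3 rose and 0 fell (median 0.35), where 11% of all genes rose. The 3 were Gins2, Rrm1 and Rrm2, the latter pair the subunits of ribonucleotide reductase, which makes DNA precursors. Rrm2 was at 3.99 to 9.61 CPM at day 0, 10.9, 12.9 and 14.6 CPM (1-digit) and 14.3 and 31.1 CPM (3-digit) at day 1, and 28.6 and 29.3 CPM (1-digit) and 84.8, 101 and 186 CPM (3-digit) at day 3. Rrm2 rose by 1.82 (adjusted p = 0.00402) and was called in both formats. Rrm1 rose by 0.79 (adjusted p = 0.0251), a call lost in 4 fits that left out 1 library, with the largest adjusted p of 0.0642 without replicate 1 of day 1. The 6 genes Mcm2 to Mcm7 of the replicative helicase did not pass the test. The letters TTTCCCGC, a core of E2F sites, were in the promoters of 3 of 14 replication genes (21.4%), in those of 1.24% of all genes and in 1.07% of all promoters.

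Genes of the extracellular matrix rose in part. Of 17 tested, 7 rose and 0 fell (median 0.50), and the 7 were Col1a1, Col1a2, Col3a1, Col5a1, Col6a1, Fn1 and Loxl2. The first 6 of these had no call against day 0 at day 1 and were above it at day 3. Col1a1, the alpha 1 chain of type I collagen, lies on chromosome 11 from 94936224 to 94953042. Col1a1 was at 6.24 to 8.8 CPM at day 0, and at day 1 at 5.18, 6.06 and 6.68 CPM (1-digit) and 22.8 and 51.1 CPM (3-digit). At day 3 it was at 117 and 50.2 CPM (1-digit) and 106, 62.8 and 157 CPM (3-digit), and only replicate 5, the second of the 1-digit libraries named, lay below the highest library of day 1. It rose 6.21-fold (log2 2.64 ± 0.44, adjusted p = 0.00211). The rise was 3.81 in the 1-digit and 1.56 in the 3-digit libraries, which differed (adjusted p = 0.0176).

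Col3a1 followed Col1a1, with 19.3 to 158 CPM at day 1, 124 to 485 CPM at day 3 and a rise of 2.57 (adjusted p = 0.00344). The basement membrane collagens Col4a1 and Col4a2 rose in the 1-digit libraries (0.66 and 0.74, adjusted p = 0.0151 and 0.0098), were at −0.30 and −0.46 in the 3-digit ones (adjusted p = 0.284 and 0.121), and lost the 1-digit call without replicate 5 of day 3 (0.196 and 0.0734). Without replicate 1 of day 3, Col4a2 also fell in the 3-digit libraries (adjusted p = 0.0255). Sparc, a matrix protein that binds collagen, rose in the 1-digit libraries alone by the test within formats (1.03, adjusted p = 0.00515, and 0.054 without replicate 4 of day 3). In all, 12 matrix genes rose within the 1-digit libraries (7 without replicate 4 of day 3) and 4 rose and 1 fell within the 3-digit libraries (0 rose without replicate 1 of day 1 and 1 without replicate 3 of day 3), and 10 of the 17 differed between formats.

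Of 10 markers of fibroblasts and pericytes 3 rose, Fbln2, Rgs5 and Notch3 (median 0.70), a count of 1 without replicate 4 and 5 without replicate 2 of day 3. The 1-digit libraries gave 6 rises (median 1.38) and the 3-digit libraries 2 (median 0.38, with 0 without replicate 1 of day 1 and 1 without replicate 2 or 3 of day 3), and 3 of the 10 differed between formats. Of all genes 11% rose with the format as a term, 16.5% in the 1-digit and 7.5% in the 3-digit libraries, and 17.6% differed between formats. Of 8 smooth muscle markers 1 fell and 0 rose by edgeR with the format as a term, where 8.66% of all genes fell. DESeq2 also called 1 lower and 0 higher, and 1 was higher at an unadjusted p under 0.05. Of the same 8, 5 rose and 1 fell in the 1-digit libraries (median 2.01), and 3 fell in the 3-digit libraries (median −0.64), with 0 without replicate 1 of day 1. Acta2, smooth muscle actin and a marker of myofibroblasts, was at 20.2, 26.5 and 37.6 CPM (1-digit) and 100.01 and 96.8 CPM (3-digit) at day 1 and at 273 and 224 CPM (1-digit) and 100.2, 46.7 and 65.4 CPM (3-digit) at day 3. The 1-digit libraries rose from near the 10.3 to 20.4 CPM of day 0 to the highest values measured, while in the 3-digit libraries replicates 2 and 3 of day 3 lay below both of day 1. The log2 fold changes of Acta2 were 3.15 ± 0.33 (adjusted p = 8.41e-05) and −0.47 ± 0.31 (adjusted p = 0.337), which differed (adjusted p = 0.000503).

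Tagln, the actin-binding protein transgelin, was at 71.6, 121 and 116 CPM (1-digit) and 274 and 194 CPM (3-digit) at day 1 and at 535 and 359 CPM (1-digit) and 139.9, 92.9 and 83.4 CPM (3-digit) at day 3. It rose by 2.12 in the 1-digit libraries and fell by 1.15 in the 3-digit ones (adjusted p = 0.000239 and 0.0166), and the latter call was lost without replicate 1 of day 1 (0.173) or replicate 3 of day 3 (0.0539). Pdgfrb, the receptor that marks pericytes and fibroblasts, was at 47.8, 59.4 and 57.6 CPM (1-digit) and 86.5 and 79.1 CPM (3-digit) in these formats at day 1 and at 120.0 and 186 CPM (1-digit) and 79.9, 41.3 and 70.9 CPM (3-digit) at day 3. Its 1-digit rise was 1.48 (adjusted p = 0.000932). Cnn2, the actin-binding calponin 2 that the study was built around, had a 1-digit change of 1.16 ± 0.19 (adjusted p = 0.000898) and a 3-digit change of −0.58 ± 0.19 (adjusted p = 0.0547), the same direction by format as Acta2, Tagln and Pdgfrb, and the formats differed (adjusted p = 0.00147).

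Of 12 endothelial markers, 3 rose (Tek, Tie1 and Ehd3) and 2 fell (Cdh5 and Egfl7), where 11% and 8.66% of all genes did. The number that rose was 0 without replicate 4 or 5 of day 1 or replicate 4 of day 3, and 1 without replicate 3 of day 1 or replicate 5 of day 3. All 7 that differed between formats had the higher change in the 1-digit libraries. Plvap, which spans the diaphragms of fenestrated capillaries, was at 71.1, 95.4 and 86 CPM (1-digit) and 145 and 144 CPM (3-digit) at day 1 and at 187 and 266 CPM (1-digit) and 112, 53.2 and 114 CPM (3-digit) at day 3. It rose by 1.43 in the 1-digit libraries (adjusted p = 0.00212). Of 8 podocyte markers 0 rose and 0 fell with the format as a term, by edgeR, by DESeq2 and at an unadjusted p under 0.05. Within the 1-digit libraries 2 of these rose and 1 fell (0 of either without replicate 5 of day 3), within the 3-digit libraries 0 did by edgeR, with 2 higher and 1 lower at an unadjusted p under 0.05 and 1 each way by DESeq2, and 3 differed between formats. Of all genes 16.5% rose and 15.5% fell in the 1-digit libraries, and 17.6% differed between formats.

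Macrophage markers rose in part. Of 17 tested, 5 rose, among them Lyz2, Trem2, Gpnmb and Itgam, and 0 fell by edgeR, with a median of 1.06. DESeq2 called 6 higher and 1 lower, 1 was lower at an unadjusted p under 0.05, and 1 fell without replicate 3 of day 1 or replicate 2 or 5 of day 3. By edgeR 5 rose and 1 fell within the 1-digit libraries, and 6 rose and 2 fell within the 3-digit ones. Of all genes 11% rose with the format as a term, 16.5% rose and 15.5% fell in the 1-digit libraries, and 7.5% and 6.41% did in the 3-digit ones. Lyz2, lysozyme of myeloid cells, was at 20 to 60.1 CPM at day 0. It was below day 0 at day 1 by the test, at 3.41, 4.46 and 9.89 CPM (1-digit) and 14.9 and 30.1 CPM (3-digit), and at day 3 it was at 46.5 and 25.6 CPM (1-digit) and 150.4, 153 and 303 CPM (3-digit). The level rose 7.49-fold from day 1 to day 3 (log2 2.91 ± 0.41, adjusted p = 0.00088), with 2.63 and 3.16 within the formats. Csf1r, the growth factor receptor that resident macrophages need, was at 84 to 98 CPM at day 0, 24.2 to 33.5 CPM at day 1 and 15.3 to 40.6 CPM at day 3 and did not pass the test between the later days (−0.37 ± 0.21, adjusted p = 0.235). Cd14, the co-receptor of bacterial lipopolysaccharide, fell in the 3-digit libraries (−1.95, adjusted p = 0.0112, and 0.0846 without replicate 1 of day 1) and was at −0.10 in the 1-digit ones (adjusted p = 0.877), a value whose sign turned under total counts.

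Neutrophil markers stayed up. Of 9 tested, 8 were above day 0 at both days without a call between the days, and 0 rose or fell by edgeR (median 0.79), with 2 higher at an unadjusted p under 0.05 and 0 called by DESeq2. The summed level of the 10 markers counted, 9 of them tested, was 1.88 to 2.42 CPM at day 0, 54.4 to 234.5 CPM at day 1 and 21.1 to 519 CPM at day 3, with the lowest value of the later days in replicate 2 and the highest in replicate 5 of day 3. S100a9, a calcium-binding protein that fills neutrophils, was at 24.2 to 106 CPM at day 1 and 8.11 to 189.9 CPM at day 3 (0.34 ± 0.54, adjusted p = 0.702). Retnlg was listed at 0 to 0.0632 CPM at day 0 and was at 4.09 to 25.4 CPM and 0.169 to 62.2 CPM at days 1 and 3 (0.90 ± 0.78, adjusted p = 0.442).

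Of 17 inflammatory cytokines and their regulators, 3 fell, Lif, Osmr and Socs3, and 0 rose, while 11 were above day 0 at both days with no call between them. Of all genes 8.66% fell, 11% rose and 17% were above day 0 in that way. The count that fell was 1 without replicate 4 of day 3 and 5 without its replicate 1 or 5, and DESeq2 called 5 lower and 1 higher. Of all genes 15.5% fell in the 1-digit libraries, and 7.5% rose and 6.41% fell in the 3-digit ones. In the 1-digit libraries 5 of the 17 fell and 0 rose (2 falls without replicate 4 of day 3), and in the 3-digit libraries 2 rose, Ccl2 and Ccl7, and 2 fell, Il11 and Lif (median −0.06). The 2 rises were 0 without replicate 1 or 3 of day 0, replicate 1 or 2 of day 1 or replicate 3 of day 3, and 1 without replicate 2 of day 3, and the 2 falls were 1 without replicate 1 of day 1 and 4 without replicate 1 of day 3. Socs3, the feedback inhibitor of the IL-6 family, was at 1.44 to 1.94 CPM at day 0, 47.4 to 139.8 CPM at day 1 and 14.9 to 55.9 CPM at day 3 and fell by 1.13 (adjusted p = 0.0172, and 0.0625 without replicate 4 of day 3). The neutrophil attractants Cxcl1 and Cxcl2 were high in the 1-digit libraries of day 1. Cxcl1 was at 331, 354 and 267 CPM there, at 40.1 and 41.1 CPM in the day 1 libraries of 3 digits and at 7.2 to 54.6 CPM at day 3. Cxcl2 was at 134, 131 and 109.9 CPM, 3.61 and 1.91 CPM and 1.3 to 20.3 CPM in the same order. Both fell within the 1-digit libraries (−3.96 and −3.33, adjusted p = 0.000622 and 0.001), with a difference between formats (adjusted p = 0.00709 and 0.0133). With the format as a term Cxcl2 was at −1.87 (adjusted p = 0.0718), and it fell by the test without replicate 2 of day 1 (0.0243) or replicate 1 of day 3 (0.017). Of 10 interferon response genes, 0 rose and 0 fell by edgeR with the format as a term, while 1 was higher at an unadjusted p under 0.05 and by DESeq2. In the 1-digit libraries 2 of them fell (median −0.93), where 15.5% of all genes did. This was a count of 0 without replicate 4 or 5 of day 1 or replicate 4 of day 3 and of 4 without replicate 1 of day 3. In the 3-digit libraries 0 rose or fell (median 0.57), by DESeq2 also, with 3 higher at an unadjusted p under 0.05 and 2 called higher without replicate 1 of day 3. The formats differed for 3 of the 10, where they did for 17.6% of all genes.

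Genes of MHC class II, which present antigen to helper T cells, fell in 3 of 7 cases (median −0.57), and the 3 were Cd74, H2-Aa and H2-Eb1. The count was 0 by DESeq2. It was 0 without replicate 4 or 5 of day 3, and 1 without replicate 4 or 5 of day 1 or replicate 1 or 3 of day 3. In the 1-digit libraries 5 fell (median −1.83, and 3 without replicate 5 of day 3) and within the 3-digit libraries 0 fell (median 0.39), which became 3 without replicate 2 of day 3. Cd74, the invariant chain, was at 108, 96.3 and 100.5 CPM (1-digit) and 41 and 44.7 CPM (3-digit) at day 1, and at 7.67 and 15.9 CPM (1-digit) and 13.3, 47.3 and 13.4 CPM (3-digit) at day 3. Replicate 2 of day 3 was the highest of its day, and it alone overlapped with day 1. Cd74 fell by 1.93 (adjusted p = 0.0178). H2-Aa fell by 1.89 (adjusted p = 0.0341). H2-Ab1 fell in the 1-digit libraries by 1.63 (adjusted p = 0.0156), a call lost without replicate 4 (0.0828) or 5 of day 3 (0.071). Of 10 genes of complement and fibrinogen, C3 rose and Cd55 fell, where 11% and 8.66% of all genes did. The 1-digit libraries gave 3 rises and 2 falls (0 falls without replicate 4 of day 3) and the 3-digit libraries 2 rises and 1 fall (0 rises without replicate 1 of day 1, 3 falls without replicate 1 of day 3), and 4 of the 10 differed between formats. Of all genes 16.5% rose and 15.5% fell in the 1-digit libraries, 7.5% and 6.41% did in the 3-digit ones, and 17.6% differed between formats. C3, the central component of the cascade, was at 14 to 37.8 CPM at day 0, 28.4, 16.4 and 15.7 CPM (1-digit) and 74.7 and 163 CPM (3-digit) at day 1, and 100 and 66.4 CPM (1-digit) and 499, 232 and 408 CPM (3-digit) at day 3. It rose by 1.86 ± 0.32 (adjusted p = 0.00255), in both formats.

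**Figure D3:**
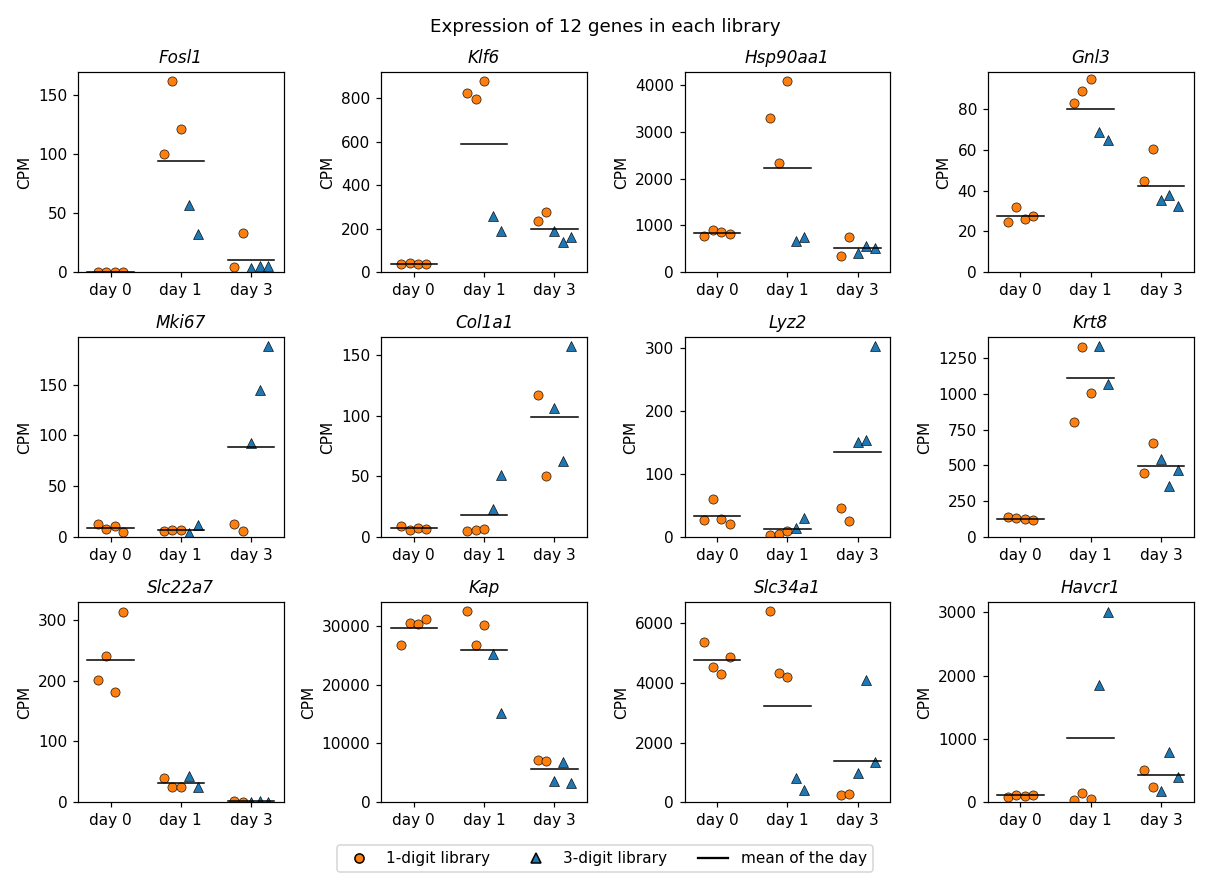
CPM of 12 genes in each library at day 0, 1 and 3, with orange circles for 1-digit and blue triangles for 3-digit libraries and a line at the mean of each day. Slc22a7, Kap and Krt8 show days 1 and 3 without overlap, Mki67 is high in the blue triangles of day 3 alone, and Slc34a1 and Havcr1 separate by format at day 1.

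Among genes of the proximal tubule, falls were the more frequent calls in the 1-digit libraries and rises in the 3-digit ones. Of 19 transporters 1 rose and 0 fell by edgeR with the format as a term (median −0.37). In the 1-digit libraries 12 fell and 1 rose (median −1.57), within the 3-digit libraries 4 rose and 0 fell (median 0.72), and 14 differed between formats. The 3-digit count of 4 was 0 without replicate 1 or 2 of day 1, and without replicate 1 or 2 of day 3 it was 8 or 2. The 0 falls with the format as a term were 3 by DESeq2 and at an unadjusted p under 0.05, 3 without replicate 1 of day 1 and 4 without replicate 2 of day 3. Slc34a1, the sodium-phosphate cotransporter of the early proximal tubule, lies on chromosome 13 from 55398187 to 55415592. Slc34a1 was at 4306 to 5387 CPM at day 0 and, at day 1, at 6401, 4343 and 4182 CPM in the 1-digit libraries, against 817 and 402 CPM in the 3-digit ones. At day 3 it was at 226 and 278 CPM (1-digit) and 982, 4084 and 1335 CPM (3-digit). The transporter was thus near its day 0 level in replicates 3 to 5 of day 1 and in replicate 2 of day 3, and below it in all other libraries of these days. The HNF1 motif, that of a factor of proximal tubule cells, was in the promoters of 0 of the 15 transporter genes in the RefSeq table and in those of 0.074% of all its genes, which says only that its letters are not in this window.

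Slc34a1 was 19.8-fold lower at day 3 in the 1-digit libraries (log2 −4.30 ± 0.58, adjusted p = 0.000311) and 3.5-fold higher in the 3-digit ones (1.81 ± 0.51, adjusted p = 0.0341), with a difference between formats of 6.11 (adjusted p = 0.000572). The 3-digit call was lost without replicate 1 (0.0903) or 2 of day 1 (0.215) or replicate 2 of day 3 (0.0731). The urate transporter Slc22a12 fell in the 1-digit libraries (−2.54, adjusted p = 0.000445) and was at 0.28 in the 3-digit ones (adjusted p = 0.617). Slc4a4, the basolateral bicarbonate transporter, was the transporter that rose in both formats. It was at 527 to 887 CPM at day 1 and 729 to 1785 CPM at day 3 (0.87 ± 0.17, adjusted p = 0.00526), with 0.85 and 0.88 within the formats.

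Of the 141 genes with a fall in the 1-digit and a rise in the 3-digit libraries, the 4 with the largest difference and at least 10 CPM were proximal tubule genes, Slc22a22, Gatm, Acmsd and Hao2. Gatm makes the precursor of creatine. It was at 913 to 1237 CPM at day 0, 580.5, 126 and 403 CPM (1-digit) and 23.5 and 37.7 CPM (3-digit) at day 1, and 38.5 and 36.3 CPM (1-digit) and 43.6, 1529 and 205 CPM (3-digit) at day 3. Replicate 2 of day 3 alone reached the level of day 0. Gatm gave −3.31 and 4.27 in the formats (adjusted p = 0.0345 and 0.0281), and the 3-digit value was 2.02 without replicate 2 of day 3 (adjusted p = 0.0657). The 3-digit call was also lost without replicate 1 or 2 of day 1 (0.2 and 0.12), and the 1-digit call without replicate 3 or 5 of day 1 (0.0844 and 0.0617) or replicate 4 or 5 of day 3 (0.149 and 0.137). Hao2, a peroxisomal hydroxyacid oxidase, gave −3.41 and 3.34 (adjusted p = 0.00112 and 0.00407), and its 3-digit call was lost without replicate 1 of day 1 (0.0666).

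Acmsd, an enzyme of tryptophan breakdown, was at 119, 37.8 and 82 CPM (1-digit) and 6.68 and 5.54 CPM (3-digit) at day 1, and at 4.1 and 6.68 CPM (1-digit) and 17.2, 129 and 45.6 CPM (3-digit) at day 3. It gave −3.88 and 3.38 in the formats (adjusted p = 0.002 and 0.00933), with the 3-digit call lost without replicate 1 or 2 of day 1 (0.0894 and 0.0763). Slc22a22, a transporter of prostaglandins, gave −5.16 and 2.64 (adjusted p = 0.000929 and 0.0303), with the latter call lost without replicate 1 or 2 of day 1 (0.119 and 0.185) or replicate 2 of day 3 (0.0779). At the other end, among the 109 genes that rose in the 1-digit and fell in the 3-digit libraries, Havcr1, Adgrg2, Acat3 and Tagln had the largest differences. Adgrg2, an adhesion receptor, was at 4.02, 8.34 and 6.11 CPM (1-digit) and 23.2 and 9.77 CPM (3-digit) at day 1 and 9.41 and 32 CPM (1-digit) and 5.04, 3.77 and 4.7 CPM (3-digit) at day 3. The 1-digit call of Adgrg2 (1.74, adjusted p = 0.0135) rested on replicate 5 of day 3, without which it was 0.60 (adjusted p = 0.376). Its 3-digit call (−1.86, adjusted p = 0.0215) was lost without replicate 1 of day 1 (0.275) or replicate 2 or 3 of day 3 (0.0523 and 0.0516). Acat3, an enzyme that joins acetyl-CoA units, was at 37.9, 27.5 and 25 CPM (1-digit) and 232 and 207 CPM (3-digit) at day 1 and at 160.0 and 137 CPM (1-digit) and 156, 43 and 83 CPM (3-digit) at day 3. Acat3 gave 2.30 and −1.22 (adjusted p = 0.00076 and 0.0369), and its 3-digit call was lost without replicate 1, 2 or 3 of day 0, replicate 1 or 2 of day 1, or replicate 3 of day 3, with adjusted p from 0.0523 to 0.182.

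Of 13 metabolic genes of the proximal tubule, 2 rose, G6pc and Pck1, and 2 fell, Kap and Cyp4b1 (median 0.02), where 11% and 8.66% of all genes did. Within the formats 8 fell and 1 rose in the 1-digit libraries (median −2.06, against 15.5% and 16.5% of all genes), and 5 rose and 1 fell in the 3-digit ones (median 0.92, against 7.5% and 6.41% of all genes). The count of 8 was 5 without replicate 5 of day 3, and the count of 5 was 1 or 0 without replicate 1 or 2 of day 1. G6pc and Pck1 encode glucose-6-phosphatase and PEPCK, by which the proximal tubule makes glucose. G6pc was at 451 to 1029 CPM at day 0, 292, 95.2 and 180.3 CPM (1-digit) and 75.1 and 24.3 CPM (3-digit) at day 1, and 1047 and 165 CPM (1-digit) and 769, 383 and 308 CPM (3-digit) at day 3. The level at day 3 overlapped with day 0, and the rise of 2.48 ± 0.59 (adjusted p = 0.0125) was lost without replicate 4 of day 3 (0.1). Pck1 was at 3119.6 to 3718 CPM at day 0, 1832, 1028 and 1009 CPM (1-digit) and 4520.3 and 2911 CPM (3-digit) at day 1, and 2979.6 to 8916 CPM at day 3, and rose by 1.55 ± 0.36 (adjusted p = 0.0108).

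Of 17 genes of fatty acid oxidation, the main fuel pathway of the proximal tubule, 4 rose and 0 fell (median 0.55), where 11% and 8.66% of all genes did. The count that rose was 0 without replicate 4 and 8 without replicate 2 of day 3, and 1 or 2 without replicate 4 or 5 of day 1. In the 1-digit libraries 9 rose and 1 fell (4 rises without replicate 4 of day 3, and 0 falls without its replicate 5), in the 3-digit libraries 2 rose and 2 fell (0 of either without replicate 1 or 2 of day 1 or replicate 3 of day 3), and 6 differed between formats. Of all genes 16.5% rose and 15.5% fell in the 1-digit libraries, 7.5% and 6.41% did in the 3-digit ones, and 17.6% differed between formats. The 4 that rose with the format as a term were Etfdh, Ppara, Ppargc1a and Slc25a20. Ehhadh, a peroxisomal enzyme of the pathway, rose in the 1-digit libraries from 424, 906 and 647 CPM to 3738 and 3677 CPM (2.49, adjusted p = 0.00118). In the 3-digit libraries it went from 1914 and 865 CPM to 2169, 821 and 824 CPM (−0.13, adjusted p = 0.87), and the formats differed (adjusted p = 0.0103). Acadm, the medium-chain dehydrogenase, fell in the 1-digit libraries instead (−0.76, adjusted p = 0.0149). Of 15 respiratory chain genes 0 rose and 0 fell by edgeR (median −0.26), with 4 lower at an unadjusted p under 0.05 and 5 called lower by DESeq2. Without replicate 1 of day 3 edgeR called 5 lower, and without replicate 2 of day 1 it called 3. Within the 1-digit libraries 12 fell, with 4 without replicate 5 of day 3 and 6 without replicate 3 of day 1. Sdha, a subunit of succinate dehydrogenase, was at 857, 680.0 and 661 CPM and 580.4 and 565 CPM in the formats at day 1 and at 437 and 307 CPM (1-digit) and 639, 765 and 604 CPM (3-digit) at day 3, and fell by 0.98 in the 1-digit libraries (adjusted p = 0.00207).

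Further along the nephron, 3 of 8 markers of the distal and connecting tubule fell, Slc12a3, Pvalb and Calb1. Slc12a3, the thiazide-sensitive salt transporter, was at 317 to 528 CPM at day 0. It was at 460.0, 400.0 and 389 CPM (1-digit) and 233 and 251 CPM (3-digit) at day 1, and at 104 and 82.3 CPM (1-digit) and 127, 191 and 92.6 CPM (3-digit) at day 3. Every library of day 3 was below all of day 1, with a fall of 1.49 (adjusted p = 0.00405). Calb1, the calcium carrier of this segment, was at 405 to 614 CPM at day 0, 100.4 to 155 CPM at day 1 and 42.6 to 103 CPM at day 3 and fell by 0.94 between the last 2 (adjusted p = 0.0125). In the thick ascending limb, 5 of 8 markers, among them Slc12a1, Egf, Ptger3 and Tmem207, which were below day 0, were called against day 0 at both days without a call between them. Between the days 1 of the 8 rose and 1 fell, where 11% and 8.66% of all genes did. Kcnj1, the potassium channel that recycles potassium there, rose by 1.17 (adjusted p = 0.0193), a call lost without replicate 4 of day 1 and without the format term. Umod, the most abundant urinary protein, fell from 2844 to 5226 CPM to 1865 to 2809 CPM, without overlap (−0.71 ± 0.21, adjusted p = 0.0302), a call lost in 4 fits that left out 1 library, with the largest adjusted p of 0.111 without replicate 4 of day 3 and under scaling by total counts. Slc12a1, the furosemide-sensitive transporter, was at 1275 to 2100.2 CPM at day 0, 109.7 to 215 CPM at day 1, and 76.7 and 26.1 CPM (1-digit) and 262, 430.5 and 614 CPM (3-digit) at day 3. The 3-digit rise (1.94, adjusted p = 0.013) was lost without replicate 1 or 2 of day 1 (0.124 and 0.0776), and the 1-digit fall (−1.72, adjusted p = 0.00949) without replicate 5 of day 3 (0.0672). Of 8 markers of collecting duct principal cells 2 fell, Scnn1g and Fxyd4, a count of 1 in 12 of the 14 fits that left out 1 library, of 3 without replicate 3 of day 3, and of 0 under total counts or without the format term. Of 8 of intercalated cells 1 fell, where 8.66% of all genes did. That gene was Slc4a9 (−1.19 ± 0.24, adjusted p = 0.00539), and 3 of the 8 fell without replicate 2 of day 1 or replicate 1 of day 3. The call of Fxyd4 (−0.59, adjusted p = 0.0221) was lost without replicate 2 of day 1 (0.0791) or replicate 4 of day 3 (0.0675), and under scaling by total counts.

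For the other programs, counts stand against the 11% of all genes that rose and the 8.66% that fell. Of 13 genes of the circadian clock, 3 rose (Clock, Per3 and Tef) and 1 fell, the repressor Nr1d1, a call lost without replicate 4 or 5 of day 3. Nr1d1 was at 2.59 to 7.74 CPM at day 0, 487, 258 and 417 CPM (1-digit) and 29.1 and 29.4 CPM (3-digit) at day 1, and 38.5 and 59.6 CPM (1-digit) and 28.5, 16.2 and 10.8 CPM (3-digit) at day 3. It fell by 2.98 within the 1-digit libraries (adjusted p = 0.000709), with a difference between formats (adjusted p = 0.0195), and the hour at which kidneys were taken is not in the labels. Of 14 genes of cholesterol synthesis, 7 stayed below day 0 at both days without a call between them, as did 15.6% of all genes. Between the days 1 rose, Insig1, and 1 fell. Neither was called without replicate 4 of day 3. Cyp51, an enzyme late in that pathway, was at 307 to 402 CPM at day 0, 35.5 to 112 CPM at day 1 and 17.9 to 71 CPM at day 3 (−0.86 ± 0.41, adjusted p = 0.154).

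Markers of tissue that can lie against a kidney sample were uneven between libraries. The summed level of 8 urothelium markers, 7 of them tested, was 5.52 to 108 CPM at day 1 and 2.7 to 41.4 CPM at day 3, highest in replicate 2 of day 1 and in replicate 4 of day 3. Among them Krt5, a keratin of basal urothelial cells, was at 0.545, 0.8 and 1.29 CPM (1-digit) and 8.41 and 53.8 CPM (3-digit) at day 1 and 28.6 and 0.588 CPM (1-digit) and 0.763, 0.225 and 4.11 CPM (3-digit) at day 3. The summed level of 6 adipocyte markers (3 tested) was 16.6 to 43.0 CPM at day 1 and 10.8 to 41.1 CPM at day 3, that of 5 adrenal markers (2 tested) 4.70 to 9.01 and 3.55 to 8.09 CPM, and that of 7 skeletal muscle markers (2 tested) 1.03 to 2.17 and 1.47 to 2.53 CPM. Alas2, the 1 marker of red blood cells tested, was at 4.85 to 26.5 CPM and 0.338 to 15.6 CPM, and the 9 lymphocyte markers, 2 of them tested, summed to 2.15 to 4.83 and 2.13 to 4.41 CPM. The other members of these lists were under the filter on low counts, and of those tested in these 5 lists 0 rose or fell with the format as a term, by edgeR, by DESeq2 or at an unadjusted p under 0.05, and of the 7 urothelium markers Upk2 fell, a call lost in 7 of the 14 fits that left out 1 library and without the format term. Within the 1-digit libraries the urothelium marker Trp63 rose (2.35, adjusted p = 0.0378, a call lost without replicate 3, 4 or 5 of day 1 or replicate 4 of day 3), and 2 of the 7, Krt5 and Trp63, differed between formats. In the same libraries the adipocyte marker Car3 fell (−4.92, adjusted p = 0.00545, a call lost without replicate 4 of day 3), and within the 3-digit ones 1 adipocyte marker was lower at an unadjusted p under 0.05 alone. The part of these tissues in the changes was not tested.

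The courses over the 3 days sum up how far day 3 had come. A gene was called recovered where it had left the day 0 level at day 1, moved back between day 1 and day 3, and was no longer called against day 0. With the format as a term, day 1 differed from day 0 in 7997 genes (55.9%), 4014 higher (28.1%) and 3983 lower (27.9%), and day 3 from day 0 in 6892 (48.2%), 3744 higher (26.2%) and 3148 lower (22%). There were 1022 recovered genes (7.15%), 445 that had been up and 577 that had been down. Another 599 were partly recovered, since they moved back and were still called against day 0, and 25 overshot. Persisting genes, called against day 0 in the same direction at both days with no call between them, numbered 4661 (32.6%), 2429 up and 2232 down. Late genes, not called at day 1 and called at day 3 against both earlier days, numbered 571 (3.99%), 365 up and 206 down. The comparisons share the libraries of day 0 and day 1, so the classes are a description with no test. Without replicate 4 of day 3 there were 577 recovered and 311 late genes.

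**Figure D4:**
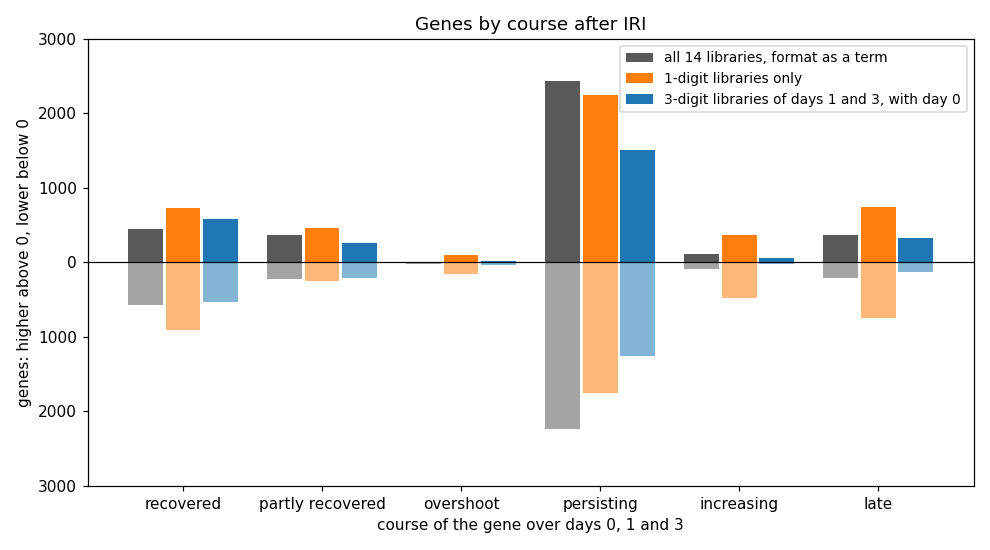
Bars count the genes of each course, up (above 0) and down (below 0) against day 0, in the fit with the format as a term, in the 1-digit libraries alone and in the 3-digit libraries of days 1 and 3 with day 0. Persisting is the largest class in each of the 3 fits, with 4661, 3994 and 2770 genes.

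The persisting genes lowered most against day 0 were Ceacam2, Apob and Slc22a26. Ceacam2, an adhesion molecule, was at 43.9 to 71.1 CPM at day 0, 0.0681 to 1.14 CPM at day 1 and 0 to 2.87 CPM at day 3. Apob, the scaffold of lipoproteins that proximal tubule cells also make, was at 37.2 to 163, 0.114 to 3.95 and 0.0735 to 2.93 CPM. Slc22a26, an organic anion transporter, was at 62.1 to 86.1, 0.743 to 4.53 and 0.102 to 5.58 CPM. None of these 3 passed the test between day 1 and day 3 (log2 fold changes 0.27, −0.24 and −1.05, adjusted p = 0.825, 0.844 and 0.282). Without replicate 2 of day 3, whose 0.102, 5.58 and 1.09 CPM for replicates 1 to 3 hold the highest value of that day, Slc22a26 fell between the days (adjusted p = 0.00323). The persisting genes that were up most were Lcn2, Retnlg and Cxcl2, and the late genes that were up most were Col1a1, Col3a1 and Ccnb1, described above. Their late counterparts that were down were Pvalb, Cyp2d9 and C4a. The formats differed for Cxcl2, Col1a1, Col3a1 and Pvalb (adjusted p = 0.0133, 0.0176, 0.0288 and 0.0374, edgeR), so these courses need not hold in each format. Cxcl2 fell 10.05-fold within the 1-digit libraries. In the 3-digit libraries of day 1 Col1a1 was already at 22.8 and 51.1 CPM, and Pvalb already at 4.58 and 3.86 CPM.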

How the data were processed

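Total RNA of 14 mouse kidney samples was sequenced. The submitters' processing notes name Trimmomatic, STAR and the mm10 build, with versions not given in the sources used here. The deposited values are the authors' raw counts of reads per gene from STAR, 1 file per library, and column 4 (second strand) was used. Its 4 entries that name no gene, 29.0% to 38.3% of the reads, were left out. CPM, TMM factors and all tests were computed here in R 4.3.3 with edgeR 4.0.16 and limma 3.58.1, on the 14300 of 24411 genes kept by edgeR's filter by day, with the day and the number format as terms (quasi-likelihood test, Benjamini-Hochberg). A second fit, with 5 groups made of day and format, gave the values within formats. DESeq2 1.42.0, other scalings, filters, thresholds, column 2, the replicate number as a block, the formats alone and leaving out each library were alternatives. log2 CPM used a prior count of 2.

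On simulated counts of 14064 genes for day 3 against day 1, edgeR recovered 80 of 100 genes changed by a log2 of 1 and 98 of 100 changed by 2, with 13 false calls among 191. The simulation gave both formats the same day change, took the spread from the fit of 5 groups and changed well-counted genes only. In the data the change differed between formats for 2510 genes, so these rates were not tested for such data. The named genes were the 8 highest and 8 lowest log2 fold changes with at least 1 CPM, a call and the same sign in both formats, the 4 highest and 4 lowest format differences with opposite calls and at least 10 CPM, the 3 up and 3 down most changed genes of 3 courses, the 3 genes Cnn2, Havcr1 and Lcn2, and genes of the lists. Other genes were named with their list, and some genes these rules select are not reported here. The members and the 38 lists (454 genes, of which 424 were tested and 30 not) were chosen with earlier results of these data known. Gene positions are from GENCODE vM21 (GRCm38) and promoters from RefSeq's GRCm38.p6.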

Additional observations from a re-analysis of the deposited data

Results flagged for a closer look

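For 54 of the 107 genes described, the change from day 1 to day 3 differed between the formats. The difference itself was tested (edgeR's quasi-likelihood test, adjusted over 14300 genes). Of all genes tested, 17.6% differed between the formats in this way. Some of the 107 were chosen for a large format difference, so their share cannot be compared with that of all genes. Values here are the log2 fold change within the 3-digit libraries minus that within the 1-digit libraries. Among proximal tubule genes the difference was 7.80 for Slc22a22, 7.58 for Gatm, 7.27 for Acmsd, 6.75 for Hao2, 6.11 for Slc34a1 and 2.81 for Slc22a12. It was −4.36 for Cyp4a14, −2.62 for Ehhadh and −3.52 for Acat3, in the other direction.

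Along the later nephron the difference was 4.79 for Egf, 4.15 for Pvalb, 3.67 for Slc12a1, 1.65 for Klk1 and 1.33 for Slc12a3. Stress genes also had a positive difference, which says nothing of the sign within a format, with 2.74 for Jun, 1.26 for Klf6, 1.82 for Dusp14, 3.63 for Cxcl1, 3.28 for Cxcl2, 2.09 for Hspa8, 2.04 for Hsp90aa1, 1.52 for Hspd1, 2.11 for Hspa5 and 2.07 for Herpud1. For the injury and stress genes Havcr1, Spp1, Gsr and Gdf15 the values were −4.77, −2.49, −1.17 and −1.48.

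The difference was 3.55 for Mki67 and 3.46 for Ccna2, genes of the cell cycle. In immune genes it was 2.31 for Cd74, 2.40 for H2-Ab1, 2.51 for H2-Aa, 1.45 for Cfb, 2.61 for C4b and 2.36 for Ifit3, and −1.85 for Cd14. Matrix, vessel and contractile genes had a negative difference, with −2.25 for Col1a1, −2.28 for Col3a1, −0.96 for Col4a1, −1.20 for Col4a2, −1.08 for Sparc, −2.07 for Plvap, −1.84 for Pdgfrb, −3.62 for Acta2, −3.27 for Tagln and −1.74 for Cnn2. The remaining values were 0.84 for the ATP synthase subunit Atp5a1, −3.61 for the adhesion receptor Adgrg2, 2.32 for Nr1d1, 1.24 for Per1, 1.93 for Cyp51, −8.24 for Krt5 and 6.50 for Car3, a marker of adipocytes. Adjusted p of these 54 genes ran from 0.000492 for Hao2 and Tagln to 0.0471 for Cd14.

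A library that stood apart from the rest of its day, by the gap to its nearest neighbour over the range of the day, was found in 22 of 321 groups of 4 or 5 libraries, where chance alone flags about 1 in 20 groups (16 of these). Values are log2 CPM. At day 0, replicate 4 stood apart for Ugt1a2 (1.04), Cyp2d9 (6.30), Ido2 (2.64), Slc22a22 (6.83), Hmox1 (5.70), Cfb (8.61), C4b (3.01) and Sparc (6.71), above the other day 0 libraries for Ugt1a2 and Hmox1 and below them for the other 6. Replicate 1 of day 0 stood apart for Kap (14.71), replicate 2 for Lhx2 (−2.50) and replicate 3 for Retnlg (−2.47), where the other 3 libraries of day 0 were at 0 counts for the last 2 genes. At day 1, replicate 2 stood above the rest for Ect2 (3.48), Rrm1 (5.69) and Rrm2 (4.96) and below it for Marc1 (−1.74) and Slc4a9 (5.36). Replicate 1 stood apart for Gdf15 (7.22, above) and Car3 (2.13, below), and replicate 3 for Ccnb1 (−0.32, below). At day 3, replicate 1 stood below the rest for Cyp2a4 (3.73), replicate 2 below it for Gsr (7.41) and replicate 5 above it for Fosl1 (5.05).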

How the results depend on the processing

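The 2811 genes that differed between day 3 and day 1 numbered 927 at an adjusted p under 0.01, 888 at an absolute log2 change of 1 or more, 1299 in the 10 libraries of days 1 and 3 alone, 5194 in the 1-digit libraries alone, and 1531 to 3278 with 1 library left out. The 2510 genes that differed between formats numbered 954 at an adjusted p under 0.01 and 1260 to 3148 with 1 library left out. The 1022 recovered genes numbered 426 at an adjusted p under 0.01, 1631 in the 1-digit libraries alone and 577 to 1220 with 1 library left out. The 4661 persisting genes numbered 2791 without a term for the format, 2770 in the 3-digit libraries with day 0 and 3791 to 4984 with 1 library left out, and the 571 late genes 162 at an adjusted p under 0.01, 1487 in the 1-digit libraries alone and 311 to 802 with 1 library left out. With the replicate number as a block these counts were 1520, 1608, 646, 1880 and 175 in the same order. The numbers were not taken as pairs, since the correlations of same-numbered libraries of days 1 and 3 were 0.382, 0.134, −0.138, −0.151 and 0.0338 and 2 of 10 libraries correlated best with their own number. Scaling by total counts moved the split of the differing genes to 2306 higher and 625 lower, of those that differed between formats to 979 and 1819, of recovered genes to 170 up and 872 down, and of late genes to 573 and 107. The causes were not tested.

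Of 3319 refits of the values of the 107 genes, 3109 kept their direction and side of the threshold, 122 lost a call, 39 gained one and 49 turned sign. Turned signs were Havcr1 at 0.0697 under total counts and 2.32 in the 1-digit libraries, Lcn2 at 0.0932 under total counts, 0.0742 without the format term and 1.24 in the 1-digit libraries, Apob at 0.23 by DESeq2 and 1.82 in the 1-digit libraries, S100a9 at −0.25 with the block and Cnn2 at −0.59 in the 3-digit libraries alone. Within the formats they were Cyp51 (3-digit) at −0.0288 with the block, Sparc (3-digit) at 0.0061 under total counts and Cd14 (1-digit) at 0.12 under total counts. With 1 library left out, the range crossed 0 for Havcr1 (−0.70 to 0.59), Lcn2 (−0.37 to 0.38), Ceacam2 (−0.83 to 0.69), Apob (−1.06 to 0.11) and S100a9 (−0.56 to 0.62). It did so in the 1-digit libraries for Gdf15 (−1.34 to 0.19), Mki67 (−0.14 to 1.00), Ccna2 (−0.17 to 1.57), Cd14 (−0.47 to 0.19) and Krt5 (−0.55 to 5.03). It did so in the 3-digit libraries for Jun (−0.0817 to 0.24), Hspa8 (−0.34 to 0.0253), Cyp51 (−0.54 to 0.46), H2-Ab1 (−0.0716 to 1.14), Cfb (−0.0335 to 0.48), Sparc (−0.21 to 0.16), Per1 (−0.22 to 0.35), Ehhadh (−0.76 to 0.55), Egf (−0.72 to 1.43) and Klk1 (−0.36 to 0.0718). None of the values of these genes that turned had passed the test with all 14 libraries, and of the turned ones Havcr1 and Lcn2 in the 1-digit libraries alone passed it (adjusted p = 0.00842 and 0.0466). With 2 libraries of a day in a format, 1 library can carry a change, and genes under a few counts in a library give fold changes that depend on the model.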

Other observations

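Among genes not described above, Egf, which encodes the epidermal growth factor precursor of the thick ascending limb, was at 1931 to 2052 CPM at day 0, 517, 381 and 482 CPM (1-digit) and 104 and 46.1 CPM (3-digit) at day 1, and 24 and 31.1 CPM (1-digit) and 36.2, 282 and 54.5 CPM (3-digit) at day 3. It fell in the 1-digit libraries by 4.06 (adjusted p = 0.0018) and was at 0.73 in the 3-digit ones (adjusted p = 0.475). Klk1, the tissue kallikrein of the connecting tubule, was at 2108 to 2556 CPM at day 0, 4185, 3825 and 4012 CPM and 2117 and 1648 CPM in these formats at day 1, and 810.1 and 1521 CPM and 2237, 1212 and 1717 CPM at day 3. Its change was −1.78 (adjusted p = 0.000909) and −0.13 (adjusted p = 0.791). Gsr, the glutathione reductase of the antioxidant response, was at 220.3 to 233 CPM at day 0, 216 to 464 CPM at day 1 and 170.5 to 415 CPM at day 3, with replicate 2 of day 3 the lowest of its day. Per1, a core gene of the circadian clock, was at 276, 206 and 248 CPM (1-digit) and 63.4 and 48.2 CPM (3-digit) at day 1 and at 93.9 and 133 CPM and 88.6, 43.1 and 52.2 CPM at day 3. It fell in the 1-digit libraries (−1.10, adjusted p = 0.00938), a call lost without replicate 4 of day 3 (0.0958).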
